A study of Mus musculus with 12 samples.

Results

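Granzymes and perforin are the proteins of the cytotoxic granule, and 9 of their genes were followed through 12 mouse tumors: Gzma, Gzmb, Gzmc, Gzmd, Gzme, Gzmf, Gzmg, Gzmk and Prf1. They were taken by gene symbol, with no use of their values, and all 9 were among the 55401 genes of the expression table. All 9 also passed the filter on low values, along with 15504 genes in all. The tumors were orthotopic 4T1 tumors, a mouse mammary carcinoma line grown in the breast of Balb/c mice, and each group had 3 tumors with 1 library each. The control group received a control IgG (IgG1-Fc isotype). The IL-10-Fc group received interleukin-10 fused to an antibody Fc part, the aCSF1R group an antibody that blocks CSF-1R, the receptor for colony stimulating factor 1, and the BF10 group a fusion protein of that antibody and interleukin-10. Treatment began at a tumor volume of 100 mm3, and the labels name 6 doses, a number that other descriptions of the study give as lower. The labels give no age for the mice, and the whole tumors were sequenced in bulk, so each value mixes cancer cells with every other cell of the tumor. The question behind the design was how interleukin-10 carried by the antibody acts on tumor immunity beside each of its parts.

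Killer lymphocytes store granzymes in granules together with perforin. Perforin opens the membrane of the target cell, and the granzymes, which are serine proteases, then cut proteins inside it. Interleukin-10 is known to act on CD8 T cells and can raise their granzyme output, and blockade of CSF-1R removes macrophages.

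The 9 genes lie at 3 places in the mouse genome (build GRCm38). Gzme, Gzmd, Gzmg, Gzmf, Gzmc and Gzmb stand in this order, with Gzmn between Gzmg and Gzmf, on the minus strand of chr14:56117626-56262260, a stretch of 144.6 kb. Gzma and Gzmk are neighbours on the minus strand of chr13:113093825-113225908. Prf1 lies alone on the plus strand of chr10:61297833-61304680. Gzmc to Gzmg are close copies of one another, and 4 of them are very alike. Gzmd and Gzme transcripts were 94.8% identical where they aligned, Gzmd and Gzmg 90.1% and Gzmf and Gzmg 88.7%, whereas Gzmc and Gzmd were 74.3% identical and Gzmb and Gzmc 76.2%. Of all 75-base stretches, the read length of the study, 5.73% of Gzmd, 5.15% of Gzmg and 4.75% of Gzme occurred in another member as well, and 0 in the other 6 members. A small share of the reads of Gzmd, Gzme and Gzmg can thus not be assigned to 1 gene by sequence.

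The promoters of the chromosome 14 genes are shown because Gzmc to Gzmg moved together across the tumors and Gzmb, next to them, did so less closely. RefSeq promoter sequences (GRCm38.p6) matched 9 of 9 members. Over the aligned stretches of the 300-base promoters (250 bases before the start and 50 after), Gzmc to Gzmg were at least 86.1% identical to one another, whereas Gzmb was 59.6% to 63.2% identical to them. In the 5 sequences of Gzmc to Gzmg the capitals mark the longest run that all 5 share, 20 bases that begin 45 to 70 bases before the start. In Gzmb they mark matches to TGANTCA, a motif of AP-1 factors, and TGTGGT, a motif of RUNX factors. All are printed on the gene's own strand, which is the minus strand.
Gzmg, chr14:56159600-56159704: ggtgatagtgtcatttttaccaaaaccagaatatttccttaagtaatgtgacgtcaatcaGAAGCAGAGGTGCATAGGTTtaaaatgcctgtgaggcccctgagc
Gzmf, chr14:56211433-56211537: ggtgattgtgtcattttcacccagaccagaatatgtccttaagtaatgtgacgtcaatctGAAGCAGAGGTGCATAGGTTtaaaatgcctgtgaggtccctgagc
Gzmd, chr14:56132598-56132702: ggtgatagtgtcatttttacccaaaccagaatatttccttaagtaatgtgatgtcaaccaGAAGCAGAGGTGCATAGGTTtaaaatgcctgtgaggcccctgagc
Gzme, chr14:56120631-56120735: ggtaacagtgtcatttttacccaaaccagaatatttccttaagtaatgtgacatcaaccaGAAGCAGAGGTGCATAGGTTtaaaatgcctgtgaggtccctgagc
Gzmc, chr14:56234658-56234762: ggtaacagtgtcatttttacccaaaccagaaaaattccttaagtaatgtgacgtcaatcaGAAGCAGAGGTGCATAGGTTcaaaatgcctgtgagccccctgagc
Gzmb, chr14:56262335-56262454: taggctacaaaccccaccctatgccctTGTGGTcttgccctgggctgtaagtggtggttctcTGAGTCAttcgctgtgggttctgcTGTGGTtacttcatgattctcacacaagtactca

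The shared run GAAGCAGAGGTGCATAGGTT occurred in 5 of 32851 promoters in the table, those of Gzmc to Gzmg. Motifs were searched on both strands of the 300-base promoters. The palindrome TGACGTCA, to which CREB and ATF factors bind, was in 3 of the 9 promoters, those of Gzmc, Gzmf and Gzmg, just before the shared run, and in 1.79% of all promoters. TGTGGT was in 8 of 9 (all but Gzmk) and in 16.8% of all promoters. TGANTCA was in 1 of 9, Gzmb, and in 7.81% of all, and TTCNNNGAA, a motif of STAT factors, also in Gzmb alone and in 8.3% of all. The TATA-like run TTTAAAA was in Gzmd, Gzme, Gzmf, Gzmg and Prf1, and in 8.74% of all promoters. In Gzmd, Gzme, Gzmf and Gzmg it overlaps the end of the shared run, which Prf1 lacks. These matches describe the letters and do not show a bound site.

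The depth estimated from the steps of the deposited values was 30900000 to 36300000 reads per library. This estimate is rough, and so are the read numbers per gene that rest on it. At these depths the reads of low genes lay on average 0.153 to 0.176 from a whole number, against 0.25 for random values. The libraries fell into 2 sets that crossed the treatments, which differed in the sum of the deposited values. Higher-sum libraries, with sums of 782919 to 921581, were control replicates 4 and 7, IL-10-Fc replicate 7, aCSF1R replicate 8 and BF10 replicate 6. The other 7, with sums of 609695 to 648413, are called lower-sum libraries. Between the 2 sets 59.2% of the tested genes differed (limma with the treatment groups in the model, adjusted p below 0.05 and at least 1.5-fold). The carcinoma markers Epcam, Krt8, Krt18, Cdh1 and Krt19 together reached 668 to 1441 TPM in the higher-sum libraries. In the lower-sum libraries they reached 1610 to 2316 TPM, so the sets did not overlap in them. TPM here is the deposited value of a gene as a share of the sum of its library, scaled to the same total in each.

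All 9 members were detected in all 12 libraries, at very different levels. The median TPM per library, a level per transcript length, was 40.8 for Gzmf, 31.1 for Gzmg, 30.3 for Gzmc, 26.3 for Gzmd, 23.8 for Gzme and 18.0 for Gzmb. It was 9.35 for Gzma, 4.31 for Prf1 and 1.32 for Gzmk. The highest and the lowest library differed 29.7-fold for Gzmg, 24.9-fold for Gzma and 20.0-fold for Prf1, but 3.99-fold for Gzmk. Gzmk rested on an estimated 10.8 to 64.8 reads per library, Prf1 on 73.9 to 1170 and Gzmg on 109 to 3080. The high values came mostly from 1 tumor, as aCSF1R replicate 6 held the highest value of 6 members (Gzmb, Gzmc, Gzme, Gzmf, Gzmg and Prf1). IL-10-Fc replicate 2 held the lowest value of 5 members (Gzma, Gzmc, Gzmd, Gzme and Gzmg).

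**Figure D1:**
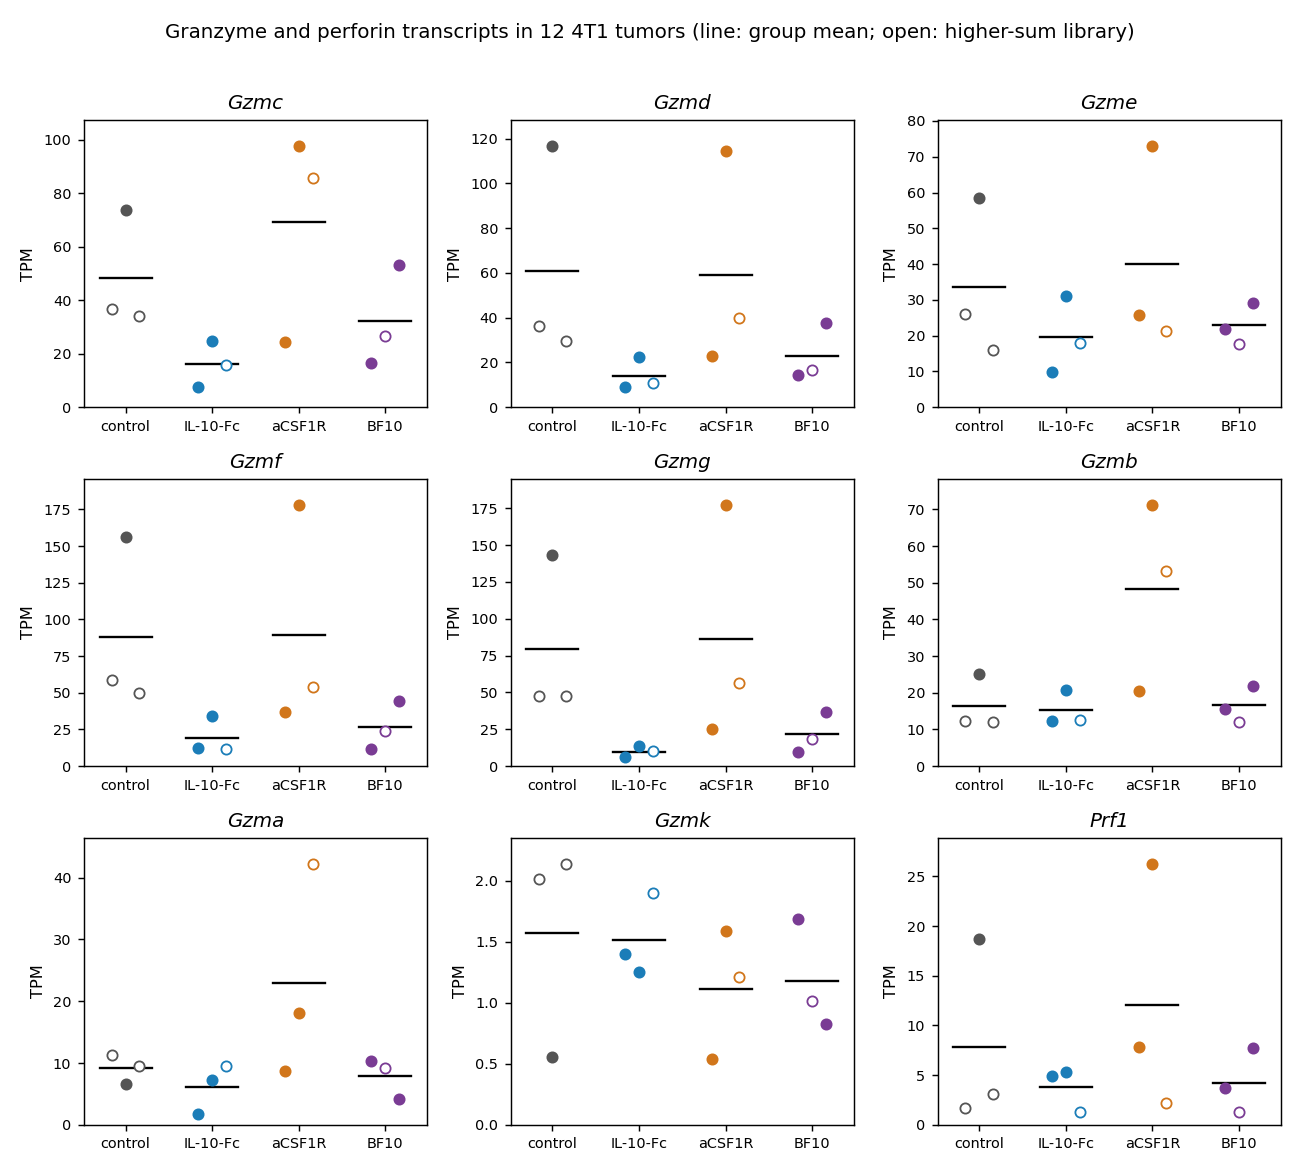
Level of each member in TPM (vertical axes, each from 0) in the 3 tumors of each group; each point is 1 library, the line is the group mean, and open points are the 5 higher-sum libraries. For Gzmf and Gzmg all IL-10-Fc and BF10 points lie below all control points, and aCSF1R replicate 6 and control replicate 5 stand above the rest of their groups in several panels.

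By the group means, 6 members (Gzma, Gzmc, Gzme, Gzmf, Gzmg and Prf1) ran in the order aCSF1R, control, BF10, IL-10-Fc from high to low. IL-10-Fc had the lowest mean of 8 members, all but Gzmk. Most neighbours in that order could not be separated. Of all steps between neighbouring groups, those from control to BF10 in Gzmf and Gzmg were the 2 in which the tumors of the groups did not overlap. No member passed the threshold (limma, a change of 1.5-fold or more at an adjusted p below 0.05) in any of the 6 comparisons of 2 groups, and none passed the F-test over the 4 groups, which 0.522% of all tested genes passed. The smallest adjusted p of the F-test was 0.509, for Gzmg.

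Under IL-10-Fc, the granzymes Gzmc, Gzmd, Gzmf and Gzmg were at lower levels than in control tumors, with no overlap between the groups, although none passed the adjusted threshold. These are granzymes of the rodent cluster, known from activated killer cells and from the natural killer cells of the pregnant uterus, and their targets are less well known than those of granzyme B. Gzmg was at 47.8, 143 and 47.4 TPM in control replicates 4, 5 and 7, and at 5.97, 13.4 and 10.1 TPM in IL-10-Fc replicates 2, 4 and 7. The highest IL-10-Fc tumor was thus below the lowest control tumor. The means were 79.5 ± 55.2 TPM (SD, n = 3) in control and 9.83 ± 3.73 TPM (SD, n = 3) in IL-10-Fc. The change of Gzmg was -2.75 on log2(TPM + 1), with an SE of 0.72 and a 95% interval from -4.34 to -1.16 (limma, unadjusted p = 0.00293, adjusted p = 0.738).

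Gzmf was at 59.0, 156 and 49.6 TPM in the control tumors and at 12.1, 34.0 and 11.4 TPM in the IL-10-Fc tumors. Control replicate 5 was again the highest, and the groups did not overlap. Its change was -2.13 ± 0.70 (SE, log2). Gzmd was at 36.3, 117 and 29.8 TPM against 9.08, 22.5 and 10.7 TPM, a change of -1.87 ± 0.67 (SE, log2), also without overlap. Gzmc was at 36.8, 73.9 and 34.0 TPM against 7.68, 24.9 and 15.8 TPM, a change of -1.57 ± 0.62 (SE, log2). The fifth gene, Gzme, overlapped, with 26.2, 58.4 and 15.9 TPM in control tumors and 9.88, 31.1 and 18.0 TPM in IL-10-Fc tumors.

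Of the 9 members, 4 were thus lower without overlap, where 1.78% of all tested genes were, and the same 4 had an unadjusted p below 0.05 (limma), where 1.44% of all tested genes did in either direction and 0.413% in the lower direction. The share of genes that passed the adjusted threshold was 0.00645% in this comparison, 1 gene that is no member. The median change of the 9 members was -0.70, and that of all tested genes was 0.35, so relative to that median the change of Gzmg was -3.10. The 4 members without overlap moved together across the tumors, so they are not independent results. Control replicate 5 carried part of the size. Without it the change of Gzmg was -2.23 and that of Gzmf was -1.63. Between the lower-sum libraries (2 against 1) the difference of Gzmg was -3.85 and between the higher-sum libraries (1 against 2) it was -2.13. In bulk tumors, fewer cells that express a gene and less RNA of it in each cell cannot be told apart.

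BF10, which carries the same interleukin-10, was compared with the same control tumors, so the values of both comparisons share their controls. Gzmg was at 9.31, 18.6 and 36.8 TPM in BF10 replicates 3, 6 and 7, all below the control tumors, and its change was -1.82 ± 0.72 (SE, log2; limma, adjusted p = 0.788). Gzmf was at 11.6, 24.0 and 44.7 TPM, also all below control, with a change of -1.68 ± 0.70 (SE, log2). Gzmd was at 14.4, 16.4 and 37.7 TPM and Gzmc at 16.5, 26.7 and 53.2 TPM, and both overlapped the control tumors through BF10 replicate 7. The change was -1.23 for Gzmd and -0.64 for Gzmc. Gzme was at 22.0, 17.6 and 29.1 TPM, within the range of control.

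Thus 2 of 9 members were lower without overlap in BF10, against 1.17% of all tested genes, and the same 2 had an unadjusted p below 0.05 (limma), against 1.51% in either direction and 0.522% in the lower one. Of all tested genes, 0% passed the adjusted threshold between BF10 and control, with 234 genes at an unadjusted p below 0.05. Of the members 8 were lower, as were 22.5% of all tested genes, and the median change was -0.41 for the members and 0.32 for all tested genes. Gzmf and Gzmg, the 2 without overlap, moved together across the tumors and are not independent results. Within the lower-sum libraries the difference of Gzmg was -2.87 and within the higher-sum libraries -1.31. With a term for the set in the model the change was -1.96 for Gzmg and -1.92 for Gzmf, and the adjusted p was 0.993 for both.

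**Figure D2:**
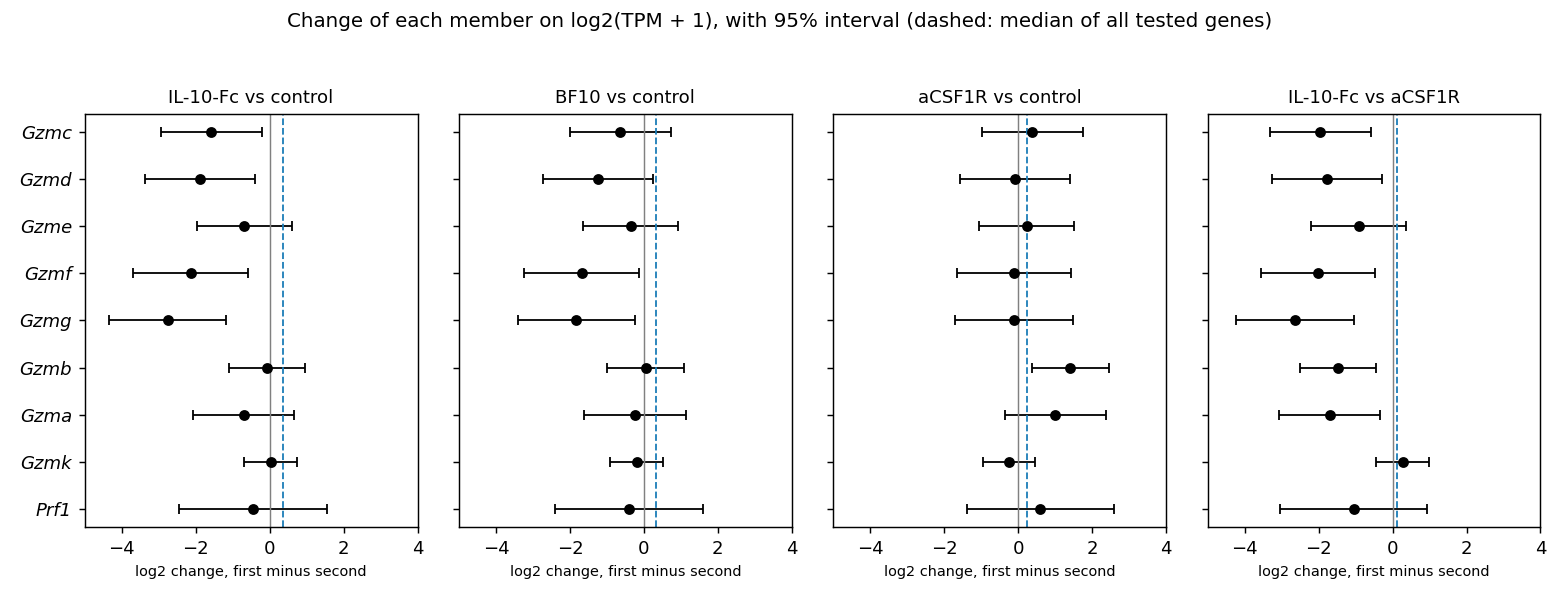
Change of each member on log2(TPM + 1) (horizontal axes, first group minus second) in 4 comparisons, with its 95% interval from limma; the dashed line is the median change of all tested genes. The intervals of Gzmf and Gzmg lie below 0 in the comparisons of IL-10-Fc and BF10 with control, those of Gzmb lie above 0 for aCSF1R against control, and no adjusted p passed the threshold.

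BF10 and IL-10-Fc were not separated from each other at any member. Of the members 8 were higher in BF10, as were 35.7% of all tested genes, with changes up to 0.93 (Gzmc and Gzmg), and Gzmk had a change of -0.22. No member had an unadjusted p below 0.05 (limma), 0.271% of all tested genes did, and 0% passed the adjusted threshold. The 95% intervals were wide, from -0.66 to 2.51 for Gzmg and from -1.10 to 2.00 for Gzmf, so the data do not show that both proteins act alike.

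The antibody alone left the cluster granzymes spread as widely as in control. Gzmg was at 25.4, 177 and 56.6 TPM in aCSF1R replicates 4, 6 and 8, and Gzmf at 36.8, 178 and 54.2 TPM, so the tumors of this group lay below, above and among the control tumors. The change against control was -0.11 for Gzmg (95% interval from -1.70 to 1.48) and -0.12 for Gzmf. Gzmd was at 22.8, 115 and 39.7 TPM, Gzme at 25.7, 73.0 and 21.4 TPM and Gzmc at 24.6, 97.7 and 85.7 TPM, and all overlapped control.

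Summed over Gzmc to Gzmg, the level was 206, 548 and 177 TPM in the control tumors and 44.7, 126 and 65.9 TPM in the IL-10-Fc tumors. It was 73.7, 103 and 202 TPM under BF10 and 135, 640 and 258 TPM under aCSF1R. The IL-10-Fc tumors lay below every control tumor and every aCSF1R tumor, while BF10 overlapped with all other groups. These 5 genes made up 86.8% to 91.5% of the summed level of the 9 members in control, 68.9% to 78.5% in IL-10-Fc, 70.1% to 85.3% in BF10 and 72.3% to 84.5% in aCSF1R. The share was thus highest in the control tumors, with no overlap with any treated tumor.

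**Figure D3:**
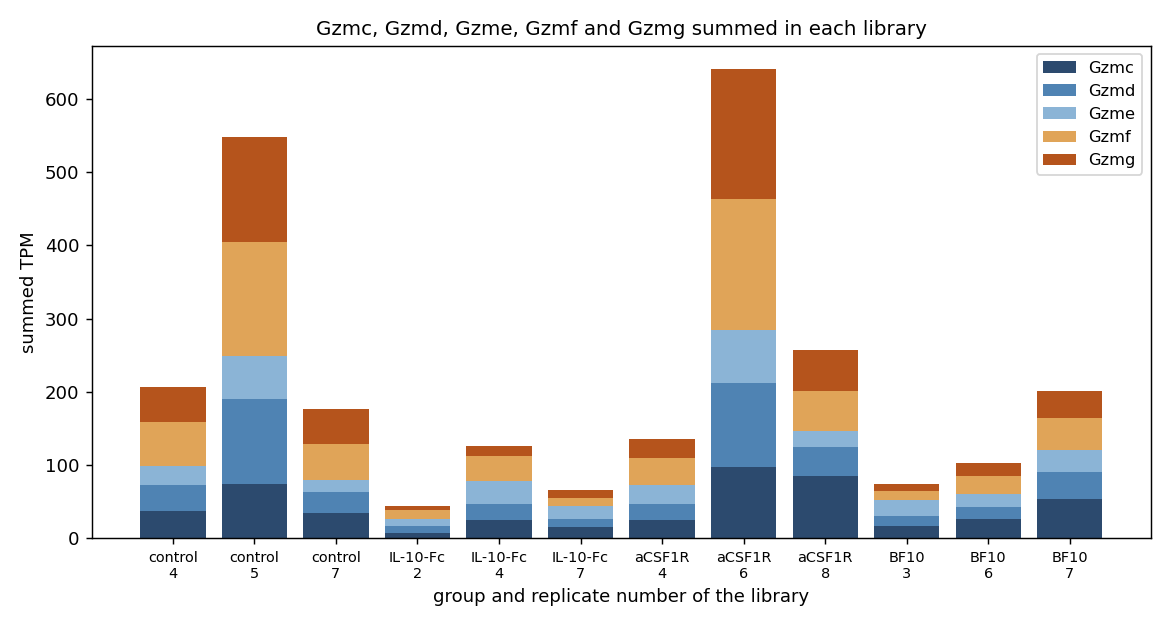
Summed level of Gzmc, Gzmd, Gzme, Gzmf and Gzmg in TPM (vertical axis from 0) in each of the 12 libraries, 1 bar each, with colors for the genes. The bars of control replicate 5 (548 TPM) and aCSF1R replicate 6 (640 TPM) stand highest, and the 3 IL-10-Fc bars reach at most 126 TPM.

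Granzyme B, which cleaves after aspartate and starts apoptosis in target cells, had another pattern. Gzmb was at 12.2, 25.2 and 12.04 TPM in control, 12.2, 20.7 and 12.6 TPM in IL-10-Fc and 15.6, 12.1 and 21.9 TPM in BF10. These 3 groups covered the same range. In aCSF1R tumors it was at 20.5, 71.2 and 53.2 TPM, so 2 of the 3 tumors were above every tumor of the other groups, and replicate 4 lay below control replicate 5. The mean was 48.3 ± 25.7 TPM (SD, n = 3) in aCSF1R and 16.5 ± 7.56 TPM (SD, n = 3) in control.

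The change of Gzmb from control to aCSF1R was 1.41 ± 0.47 (SE, log2), with a 95% interval from 0.37 to 2.44 (limma, unadjusted p = 0.0127, adjusted p = 0.697). It was the 1 member of 9 with an unadjusted p below 0.05 in this comparison, where 3.46% of all tested genes had one and 0.568% passed the adjusted threshold. The median change of the members was 0.23, close to the 0.24 of all tested genes. Between BF10 and control the change of Gzmb was 0.05, with a 95% interval from -0.99 to 1.09, and it was -0.30 with libraries scaled by the median of ratios, so its direction depends on the scaling. Between IL-10-Fc and control it was -0.07, with an interval from -1.11 to 0.97.

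Granzyme A, a tryptase that acts inside the target cell in a way distinct from granzyme B, was at 11.4, 6.62 and 9.57 TPM in control and at 1.70, 7.19 and 9.52 TPM in IL-10-Fc. It was at 10.3, 9.19 and 4.24 TPM in BF10 and at 8.76, 18.0 and 42.3 TPM in aCSF1R. Replicates 6 and 8 of aCSF1R were above all other tumors, and replicate 4 was within the range of control. The change of Gzma from control to aCSF1R was 1.00 ± 0.62 (SE, log2; limma, adjusted p = 0.893). Without aCSF1R replicate 8 it was 0.45. Gzma was also higher in higher-sum libraries, by 0.95 on the log2 scale (limma, adjusted p = 0.0251), and aCSF1R replicate 8 is one of them.

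Perforin differed between the library sets. Prf1 was at 1.74 and 3.15 TPM in control replicates 4 and 7 and at 18.7 TPM in control replicate 5, and at 4.88, 5.37 and 1.32 TPM in IL-10-Fc. It was at 3.74, 1.33 and 7.70 TPM in BF10 and at 7.84, 26.3 and 2.21 TPM in aCSF1R. All 5 higher-sum libraries, at 1.32 to 3.15 TPM, were below all 7 lower-sum libraries, at 3.74 to 26.3 TPM. The difference of Prf1 between the sets was -1.92 on the log2 scale (limma, adjusted p = 0.000253).

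Between the treatments and control the change of Prf1 was -0.46 under IL-10-Fc, -0.41 under BF10 and 0.60 under aCSF1R, each with a 95% interval that included 0. With a term for the set it was -1.10 under IL-10-Fc, -1.05 under BF10 and -0.04 under aCSF1R, so the last changed direction, and the adjusted p was 0.942, 0.993 and 1.00. Within the lower-sum libraries the difference of Prf1 was -1.62 for BF10 and -1.69 for IL-10-Fc (2 against 1), and within the higher-sum libraries it was -0.53 and -0.54 (1 against 2).

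Gzmk, a tryptase and neighbour of Gzma that marks memory-like CD8 T cells, was low in every tumor. It was at 2.02, 0.56 and 2.14 TPM in control, 1.40, 1.25 and 1.90 TPM in IL-10-Fc, 0.54, 1.59 and 1.22 TPM in aCSF1R and 1.69, 1.01 and 0.82 TPM in BF10. All groups overlapped. Its changes against control ran from -0.25 in aCSF1R to 0.03 in IL-10-Fc, and the last was -0.30 with libraries scaled by the median of ratios. The other granzymes of the mouse, Gzmm and Gzmn, were at 0.13 to 0.81 TPM and 0.05 to 0.89 TPM and did not pass the filter, Gzmn although it lies inside the cluster between Gzmg and Gzmf.

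The comparison of IL-10-Fc with aCSF1R tumors had the largest share of members at an unadjusted p below 0.05 (limma), 6 of 9 (Gzma, Gzmb, Gzmc, Gzmd, Gzmf and Gzmg) against 3.56% of all tested genes in either direction. All 6 were lower in IL-10-Fc, a direction in which 0.387% of all tested genes had such a p, and 0.542% of all tested genes passed the adjusted threshold. Gzmd, Gzmf and Gzmg, 3 of 9, did not overlap, against 1.60% of all tested genes in that direction. Members that move together across the tumors are counted in both, so the counts are not of independent genes. The change of Gzmg was -2.64 ± 0.72 (SE, log2; limma, adjusted p = 0.322), and without aCSF1R replicate 6 it was -1.91. The change of Gzmb was -1.48 (adjusted p = 0.621) and that of Gzma was -1.70 (adjusted p = 0.919). Between BF10 and aCSF1R, Gzmb, Gzmf and Gzmg (3 of 9) were at an unadjusted p below 0.05, with changes of -1.36, -1.57 and -1.72, against 4.26% of all tested genes in either direction and 0.561% in this one, and 0.735% passed the adjusted threshold. No member departed from additivity (the BF10 change set against the sum of the changes of both parts) at an unadjusted p below 0.05 (limma), where 2.43% of all tested genes did and 0.290% passed the adjusted threshold.

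Across the tumors the cluster granzymes moved as a block. With the mean of each library set taken out, Pearson's r over the 12 libraries was 0.99 between Gzmd and Gzmg, 0.98 between Gzmd and Gzmf and 0.98 between Gzmf and Gzmg. Gzmc was at 0.94 with Gzmd, and Gzme at 0.89 with Gzmd. These genes share some reads and all share libraries, and Gzmc and Gzmf, with 0% of shared 75-base stretches, were still at 0.91. Gzmb was at 0.85 with Gzma, 0.81 with Gzmc and 0.69 with Gzmg.

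Prf1, on another chromosome, was at 0.93 with Gzmg, 0.91 with Gzmf and 0.41 with Gzma. Gzmk was at -0.30 to -0.05 with each of the other 8 members. In the 7 lower-sum libraries alone r was 0.99 between Gzmd and Gzmg, 0.97 between Prf1 and Gzmg, and 0.74 between Gzmb and Gzma. The values describe these 12 tumors, in which 2 tumors are far above the rest for the cluster granzymes.

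The T cell genes Cd8a and Cd3e did not run with the granzymes, apart from Gzmk. Cd8a, a chain of the CD8 coreceptor, was at 2.59, 3.13 and 2.72 TPM in control and at 7.98, 7.74 and 4.09 TPM in IL-10-Fc, where the tumors did not overlap and the cluster granzymes were at their lowest. It was at 6.80, 2.52 and 4.63 TPM in BF10 and 5.22, 6.02 and 1.35 TPM in aCSF1R. The change of Cd8a from control to IL-10-Fc was 0.95 ± 0.46 (SE, log2) and did not pass the threshold. Over the 12 libraries, set means taken out, r with Cd8a was -0.76 for Gzmc, -0.71 for Gzmg, -0.51 for Gzmb and Prf1, and -0.42 for Gzma, but 0.68 for Gzmk. With Cd3e, a chain of the T cell receptor complex, it was -0.44 for Gzmg and 0.66 for Gzmk.

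Of the 6 CD8 T cell markers, 6 were higher in IL-10-Fc than in control and 0 passed the threshold. Their median change was 0.44 beside 0.35 for all tested genes, so most tested genes were higher there too. The summed level of the 6 markers was 24.5 to 42.6 TPM in IL-10-Fc and 18.1 to 34.4 TPM in control. It was 15.8 to 45.3 TPM in BF10 and 12.5 to 33.7 TPM in aCSF1R. No marker of the list was at 0 in any library.

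Ncr1, a receptor of natural killer cells, was at 5.79, 4.72 and 6.05 TPM in control and at 0.91, 2.38 and 2.81 TPM in IL-10-Fc, without overlap (change -1.16 ± 0.48, SE, log2; not past the threshold). It was at 4.93, 3.40 and 3.11 TPM in BF10 and at 2.44, 2.62 and 11.6 TPM in aCSF1R. Its r with the members, set means taken out, was 0.69 for Gzma, 0.66 for Gzmc, 0.53 for Gzmg and -0.15 for Gzmk. The 5 tested NK markers did not all share this pattern. Their r with Gzma ran from -0.72 for Klrk1 to 0.69 for Ncr1, and with Gzmb from -0.70 for Klrk1 to 0.50 for Ncr1. Klre1 went the same way as Ncr1, at 0.39 with Gzma, 0.51 with Gzmc, 0.62 with Gzmg and 0.60 with Prf1. Klrb1c, the receptor NK1.1, was at -0.65 with Gzma, and Klrd1, the chain CD94, at -0.17 with Gzmc and Gzmg. Of the 5 tested markers of NK cells, 5 were lower in IL-10-Fc than in control, with a median change of -0.37. This was not particular to IL-10-Fc. Against control, aCSF1R also had 5 lower markers (median change -0.27), while BF10 had 4 lower and 1 higher (median change -0.38). Of these changes, 0 passed the threshold. The summed level of the list was 22.3 to 34.1 TPM in control and 20.9 to 25.4 TPM in IL-10-Fc. It was 23.3 to 26.9 TPM in BF10 and 16.0 to 28.3 TPM in aCSF1R. Klrk1, the activating receptor NKG2D, was the 1 marker of this list past the threshold in any comparison and was higher in BF10 than in aCSF1R by 1.35 on the log2 scale (limma, adjusted p = 0.0445). In the fit with a term for the library set this became 0.00224, and Klrk1 passed in the other comparisons with aCSF1R too. Its change there was -1.16 in aCSF1R against control (adjusted p = 0.0105) and 1.12 in IL-10-Fc against aCSF1R (adjusted p = 0.0102). Without that term Klrk1 passed in 1 of the 12 fits that each left out 1 library, and the largest adjusted p was 0.242, without BF10 replicate 7. The part of NK or T cell numbers in the granzyme levels was not tested.

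Markers of mast cells, which also store proteases in granules, had their highest mean summed level in aCSF1R. The mean of 7 of the 9 members, all but Gzmd and Gzmk, was highest there too. The summed level of 6 mast cell markers was 58.7 to 258 TPM in aCSF1R, 16.6 to 34.1 TPM in control, 15.0 to 40.3 TPM in IL-10-Fc and 20.2 to 61.1 TPM in BF10. All 6 were higher in aCSF1R than in control, and 0 of 6 passed the threshold. Their median change was 1.71 beside 0.24 for all tested genes. Cpa3, the mast cell carboxypeptidase, was at 6.08, 11.1 and 57.9 TPM in aCSF1R and at 5.17, 0.87 and 7.26 TPM in control, and its r with the members, set means taken out, was 0.76 for Gzmb, 0.70 for Gzma and 0.31 for Gzmg. The markers differed among themselves, since r with Gzmb ran from -0.29 for Kit to 0.82 for Fcer1a, and r with Gzma from -0.16 for Kit to 0.74 for Fcer1a. Hdc was at -0.14 with Gzmb. Within aCSF1R the summed level was 58.7, 98.0 and 258 TPM in replicates 4, 6 and 8, with Gzma at 8.76, 18.0 and 42.3 TPM and Gzmb at 20.5, 71.2 and 53.2 TPM, so that Gzma had the order of the markers and Gzmb did not. The part of mast cells in the levels of Gzma and Gzmb was not tested.

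The mast cell chymase genes Mcpt1, Mcpt2, Mcpt4 and Cma1, which neighbour the granzyme cluster on chromosome 14, had higher mean levels in aCSF1R than in control too. They resemble one another, so reads may be split between them. Mcpt1 was at 3.04, 49.98 and 27.8 TPM against 1.20, 0.33 and 3.13 TPM, and Mcpt4 at 9.77, 17.0 and 64.6 TPM against 3.68, 1.06 and 5.59 TPM. The groups did not overlap for Mcpt4, and for Mcpt1 aCSF1R replicate 4 lay below control replicate 7. Of the 6 neighbouring proteases 5 were higher, the exception being Ctsg, and 0 passed the threshold. Cma1 passed in the fit with a term for the library set (change 2.52, adjusted p = 0.0403). Ctsg, cathepsin G of the neutrophil granule, was at 0.55 to 8.58 TPM in 11 libraries and at 71.2 TPM in BF10 replicate 3.

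**Figure D4:**
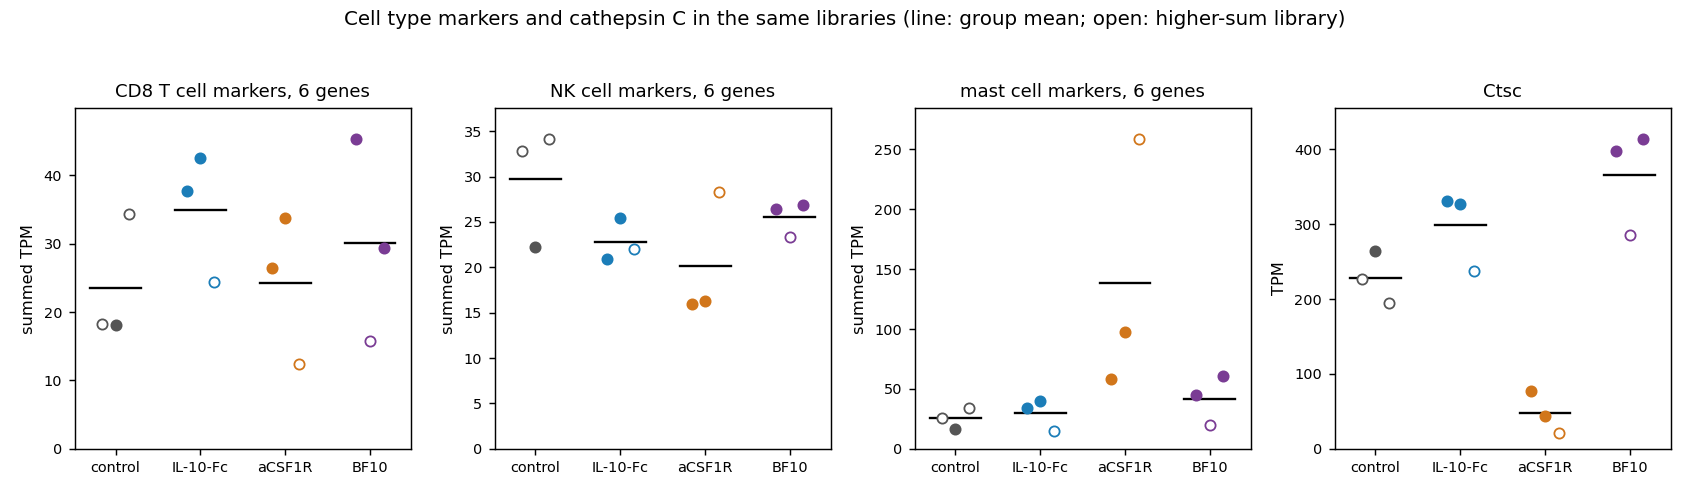
Summed TPM of CD8 T cell, NK cell and mast cell marker lists and TPM of Ctsc (vertical axes, each from 0) in the 3 tumors of each group, with the group mean as a line and the 5 higher-sum libraries as open points. Mast cell markers have their highest mean in aCSF1R (58.7 to 258 TPM), and Ctsc lies at 77.0 TPM or less in all 3 aCSF1R tumors and at 195 TPM or more in all others.

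Among the genes that process and release granules, 1 of 11 tested passed the threshold in any comparison, and it was cathepsin C. Ctsc encodes the protease that trims the granzymes into their active form. It was at 227, 264 and 195 TPM in control and at 77.0, 44.5 and 20.9 TPM in aCSF1R. All aCSF1R tumors were far below all other tumors, as IL-10-Fc was at 331, 327 and 238 TPM and BF10 at 397, 286 and 413 TPM. Ctsc fell by 2.42 ± 0.39 (SE, log2) from control to aCSF1R (limma, adjusted p = 0.0176). It was higher in BF10 than in aCSF1R by 3.08 (adjusted p = 0.00446) and higher in IL-10-Fc than in aCSF1R by 2.80 (adjusted p = 0.0101). With the library set as a term the adjusted p of these 3 differences was 0.00021, 6.16e-05 and 0.000148. With 1 library left out, the difference from BF10 passed in 12 of 12 fits. The difference from control passed in 8 of 12, and was lost without aCSF1R replicate 6 or control replicate 4, 5 or 7, with adjusted p up to 0.0845 and a change of -2.85 to -1.94. The difference from IL-10-Fc passed in 9 of 12, and leaving out IL-10-Fc replicate 2, IL-10-Fc replicate 4 or aCSF1R replicate 6 lost it, with adjusted p up to 0.0709 and a change of 2.31 to 3.23.

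The macrophage markers were low in the same tumors as Ctsc. Of 6 macrophage markers (Csf1r, Adgre1, C1qa, C1qb, C1qc and Mrc1), 6 had a lower fitted level in aCSF1R than in control, with changes of -4.05 to -2.05 and a median of -3.21 beside 0.24 for all tested genes. Of these, 5 passed the threshold, as did 0.568% of all tested genes, and 4 or 5 passed in the fits that each left out 1 library. The exception was Csf1r (change -2.21), which passed with the library set as a term (adjusted p = 0.00131). Their summed level was 65.7 to 213 TPM in aCSF1R and 1269 to 2099 TPM in the other groups. Macrophages also express Ctsc, and their part in its change was not tested. Srgn, the proteoglycan serglycin on which granzymes are packed, was at 121, 103 and 150 TPM in aCSF1R and at 312, 210 and 278 TPM in control (change -1.09 ± 0.28, SE, log2), without overlap and not past the adjusted threshold. In the fit with a term for the library set it was lower in aCSF1R than in BF10, which exceeded it by 1.09 (adjusted p = 0.0423), and than in IL-10-Fc, which did so by 1.21 (adjusted p = 0.0287). In that fit 2.01% of all tested genes passed for aCSF1R against control, 2.82% for BF10 against aCSF1R and 2.13% for IL-10-Fc against aCSF1R. Nkg7, a protein of the granule membrane, was at 7.66, 9.65 and 9.40 TPM in control, 17.2, 16.2 and 10.1 TPM in IL-10-Fc, 27.1, 6.64 and 12.7 TPM in BF10 and 10.7, 13.9 and 9.04 TPM in aCSF1R, so that the IL-10-Fc tumors lay above control while the fitted levels of Gzmc, Gzmd, Gzme, Gzmf and Gzmg were lower than in control.

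The 6 serpin genes listed as granzyme inhibitors differed in how far their levels spread. Whether each of them, Serpina3g among them, inhibits a granzyme was not tested. Serpinb9, the inhibitor of granzyme B, was at 21.3 to 42.5 TPM over all 12 libraries, and Serpinb6b, an inhibitor of granzyme A, at 20.5 to 44.0 TPM. The change of Serpinb9 against control was 0.10 in IL-10-Fc, -0.03 in BF10 and -0.01 in aCSF1R, each with an SE of 0.30. Serpina3g was at 37.7, 45.5 and 31.5 TPM in control. In IL-10-Fc it was at 127, 182 and 163 TPM, and in BF10 at 186, 86.5 and 117 TPM, above control in all 6 tumors. Its change was 2.01 ± 0.46 (SE, log2) in IL-10-Fc and 1.68 ± 0.46 in BF10, neither past the threshold (limma, adjusted p = 0.738 and 0.788). The median change of all tested genes was 0.35 in IL-10-Fc and 0.32 in BF10, and the share of them higher without overlap is not given. Serpina3n, a secreted inhibitor of granzyme B, was at 12.7, 13.4 and 16.5 TPM in control. In IL-10-Fc it was at 38.8, 83.05 and 29.6 TPM, and in BF10 at 76.8, 24.8 and 26.4 TPM, again without overlap. In aCSF1R both genes overlapped control, and Serpina3n ran from 3.16 to 116 TPM there. Serpinb9b, a close relative of Serpinb9, was at 3.04, 2.21 and 3.38 TPM in control and at 0.67, 1.097 and 0.87 TPM in BF10, lower without overlap (change -1.04 ± 0.31, SE, log2; adjusted p = 0.788).

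Tested were 6 genes listed as inhibitors, 10 entry factors and substrates, 7 inducing cytokines and receptors and 7 transcription factors of effector cells. Of these genes, 0 passed the threshold in any of the 6 comparisons. A term for the library set brought 1 of the factors and 1 of the receptors past it. Runx3, a factor of the cytotoxic T cell programme, was at 1.97, 7.83 and 3.96 TPM in control, 9.34, 8.08 and 4.79 TPM in IL-10-Fc, 13.4, 3.30 and 13.9 TPM in BF10 and 3.27, 2.72 and 0.64 TPM in aCSF1R. All aCSF1R tumors were below all IL-10-Fc and BF10 tumors and overlapped control. In that fit Runx3 differed by -1.19 in aCSF1R against control (adjusted p = 0.0373), and exceeded aCSF1R by 1.72 in BF10 (adjusted p = 0.00225). The IL-10-Fc tumors exceeded aCSF1R by 1.46 (adjusted p = 0.00858). Il2rg, the common gamma chain of interleukin receptors, was higher in BF10 than in aCSF1R by 1.26 (adjusted p = 0.0459) and the groups overlapped.

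Of the other effector molecules 0 of 6 passed it. Ifng, interferon gamma, was at 1.45, 0.87 and 0.72 TPM in control and at 3.05, 1.495 and 2.27 TPM in BF10, without overlap (change 0.69 ± 0.26, SE, log2). The level in IL-10-Fc was 2.18, 2.33 and 1.37 TPM and in aCSF1R 1.48, 1.56 and 1.71 TPM. Fasl, the ligand of the second killing pathway, was at 0.35 to 1.74 TPM in all libraries. Of the 6 effector molecules, 6 were higher in BF10 than in control. Their median change was 0.60 beside 0.32 for all tested genes. Only 22.5% of all tested genes were lower in this comparison, so most genes were higher too. Of the 9 granzyme and perforin genes, 8 were lower.

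Foxp3, the regulator of regulatory T cells, was at 0.07 to 1.31 TPM, and 0 of 4 markers of these cells passed the threshold in any comparison. Of the 2 tested markers of plasmacytoid dendritic cells 0 passed. The 5 neutrophil markers were uneven in BF10, where they summed to 712 to 16381 TPM, against 819 to 1795 TPM in control, and 0 of 5 passed.

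The genes most like the members across the 12 libraries, by Pearson's r with set means taken out, recurred only among Gzmc to Gzmg. The 3 most alike for each of 9 members gave 20 genes, of which 3 appeared more than once and 17 once. Out of 15495 genes, Fcrl6 and Tslp were among the 3 most alike for Gzmd, Gzmf and Gzmg, with r of 0.90 to 0.94, and Ino80dos was among them for Gzmc, Gzmd, Gzme and Gzmg, with 0.88 to 0.92. For Gzmb they were Gm20559 (0.92), Trmt11 (0.91) and Scfd1 (0.91), and for Prf1 Zfp973 (0.96), Itga10 (0.95) and Zfp869 (0.94). For Gzma the closest was Col16a1 (0.90) and for Gzmk Mustn1 (0.83). None of the CD8 T cell or NK cell markers was among these genes, and no p is given for a search over this many genes.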

How the data were processed

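Bulk RNA-seq of 12 tumors was analysed from the authors' deposited FPKM table (fragments over transcript length and library depth, with 2 decimals). Per the study's methods, stranded polyadenylated libraries were read at 75 bases and aligned to mm10; the processing notes name STAR 2.7.5a, RSEM 1.3.3 and DESeq2 1.28.0 without their roles. The authors also deposited 4 tables of their own comparisons (log2 fold changes, p-values), which were not used. Of the table's columns, 0 were left unmatched to a sample.

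FPKM was divided by the library sum to give TPM. Genes with TPM of at least 1 in at least 3 libraries were fitted on log2(TPM + 1), a scale that understates changes of low genes, with limma 3.58.1 (R 4.3.3, eBayes with trend), 1 mean per group and 8 residual degrees of freedom. A gene passed at Benjamini-Hochberg adjusted p below 0.05 over all 15504 genes and a change of at least 1.5-fold. The share of all tested genes without overlap is given for the lower direction only. It is given for IL-10-Fc and BF10 against control and for IL-10-Fc against aCSF1R. Srgn, lower without overlap in aCSF1R than in control, thus has no such share beside it. Nor have genes higher without overlap, such as Cd8a, Nkg7, Ifng, Serpina3g, Serpina3n and Mcpt4. The share of all tested genes with a change in 1 direction, whatever their p, is given for BF10 against control and against IL-10-Fc only. The fit was tested on simulated data with a smaller spread than the members had and without library sets. That test thus does not show how well the fit finds changes of the members. FPKM is no count, so no count model was run; reads were estimated from the steps of low values, after subtracting 74 bases from the transcript length. The labels do not state that the tumors came from separate mice, so p-values measure the spread between these samples only. Alternatives were another pseudocount, filter or scaling, a term for the library set, a replicate block, fits of the compared groups alone, and leaving out each library.

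The members and the lists of related genes were chosen with earlier results of these data known. Named besides the members were list genes past the threshold (at most 4 a list), a fixed set of granule, inhibitor and marker genes, and the 3 genes most like each member. The chymase, carcinoma and macrophage genes and the list genes that passed only with a term for the library set were named after their values were seen. So were Serpina3g, Serpina3n, Serpinb9b, Klrb1c, Klrd1, Klre1, Kit, Hdc and Fcer1a. Gene positions are from GENCODE and promoters from RefSeq. The library sets were defined by a deposited sum of 700000.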

Additional observations from a re-analysis of the deposited data

How the results depend on the processing

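In none of the 20 alternatives to the fit, 12 of them leaving out 1 library, did a member pass the threshold in any comparison, and the smallest adjusted p among them was 0.0959 (Prf1, aCSF1R against control, with the replicate number as a block). A pseudocount of 0.1 kept the direction of all 54 member changes. So did no filter, a filter of TPM 1 in 6 libraries, and fits of the compared groups alone. The filters and the fits of the compared groups leave the group means as they are, so they could not turn a direction. Other settings turned the direction of small changes, all in log2 units, and the cause was not tested. With deposited FPKM not rescaled, BF10 against control gave -0.13 for Gzmb and IL-10-Fc against control -0.13 for Gzmk. With scaling by the median of ratios, the same gave -0.30 and -0.30, and BF10 against aCSF1R gave -0.068 for Gzmk. With the library set as a term, BF10 against control gave 0.078 for Gzma and -0.072 for Gzmb, and aCSF1R against control gave -0.014 for Gzme and -0.043 for Prf1. For samples with the same replicate number, deviations from the group means had r from -0.66 to 0.42 over 7 pairs. The set means were not taken out, and r was above 0 only for pairs within the same library set (0.42 and 0.35). These values thus cannot show whether the numbers pair the samples, and the main fit does not use the numbers. With the number as a replicate block, which leaves 2 residual degrees of freedom, 0 members passed in any comparison and 13 changes turned. BF10 against control gave 0.40 for Prf1. IL-10-Fc against control gave 0.39 for Gzmb, 0.20 for Gzme, -0.27 for Gzmk and 0.19 for Prf1, and aCSF1R against control gave -0.21 for Gzma, 0.39 for Gzmd, 0.22 for Gzmf and 0.19 for Gzmg. BF10 against IL-10-Fc gave -0.84 for Gzma, -0.28 for Gzmb and -0.22 for Gzme, and BF10 against aCSF1R gave -0.20 for Gzmk. Leaving out 1 library turned 34 of 648 fitted values, in 18 of 54 changes. A left-out library of a group outside the comparison does not alter the change, so many of the 648 values could not turn. For BF10 against control the ranges were Gzma -0.45 to 0.11, Gzmb -0.17 to 0.38, Gzme -0.78 to 0.13 and Prf1 -0.98 to 0.44. For BF10 against IL-10-Fc the ranges were Gzma -0.13 to 0.85, Gzmb -0.095 to 0.35, Gzme -0.075 to 0.71, Gzmf -0.0079 to 0.93 and Prf1 -0.42 to 0.54. For IL-10-Fc against control the ranges were Gzmb -0.30 to 0.26, Gzmk -0.30 to 0.21 and Prf1 -1.03 to 0.39. For aCSF1R against control the ranges were Gzmd -0.72 to 0.51, Gzme -0.30 to 0.72, Gzmf -0.77 to 0.39, Gzmg -0.84 to 0.54 and Prf1 -0.19 to 1.45. For BF10 against aCSF1R the ranges were Gzmk -0.16 to 0.22. The precision is limited by 3 tumors per group and, for Gzmk, by few reads.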
